A study of Camelina sativa with 12 samples.

Results

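Csa19g003320 and Csa15g001220 are the pair of Camelina sativa (camelina, an oilseed of the Brassicaceae) genes that the study annotates as galactose mutarotase-like superfamily proteins and lists together as lower in 35S::acdS roots than in control roots. They are 2 of the 49932 genes in the deposited expression table, and both passed the filter on low values. Their identifiers place Csa19g003320 on chromosome 19 and Csa15g001220 on chromosome 15. The study gives Csa19g003320 the Arabidopsis thaliana ortholog AT3G01260, and lists Csa15g001220 with no ortholog. The enzyme code beside Csa15g001220 in that list is one of a calcium/calmodulin-dependent protein kinase, while its name and description are mutarotase-like, so its annotation is less certain than that of Csa19g003320. The pair is therefore one by annotation, and whether the genes are copies of one another was not examined here. The members were chosen by their values in 35S::acdS and control roots, so those values are given as a description, with no test.

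Roots were taken from 28-day-old plants that had been watered with 192 mM NaCl (15 dS/m) for 21 days, starting 7 days after sowing, and every library came from salt-treated plants. The 4 groups had 3 biological replicates each. In the 8R6 group, plants of the wild-type line DH55 grew in soil treated with the wild-type endophytic bacterium Pseudomonas migulae 8R6, which makes 1-aminocyclopropane-1-carboxylate (ACC) deaminase. The 35S::acdS group was a DH55 line carrying the acdS gene for this enzyme, from Pseudomonas sp. UW4, behind the double 35S promoter of cauliflower mosaic virus, which is active throughout the plant. The rolD::acdS group was a DH55 line carrying the same gene behind the rolD promoter of Agrobacterium rhizogenes, which is mainly active in roots. The control group was untransformed DH55, and the soil of the control plants and of both transgenic lines received buffer without bacteria. Each transgenic group represents a single line, so that the transgene and the line cannot be told apart. The acdS transgene was not analysed here.

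Aldose 1-epimerases, also called mutarotases, interconvert the alpha and beta forms of free sugars such as galactose and glucose. This step supplies the alpha form that galactokinase uses at the entry of galactose metabolism. In plants, free galactose is released by the turnover of cell wall polymers and of the raffinose family of oligosaccharides, which accumulate under drought and salt. Proteins of the mutarotase-like superfamily share the fold of these enzymes, and many plant members have no assigned substrate. ACC deaminase breaks down ACC, the immediate precursor of the stress hormone ethylene.

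Both genes were lowest on average in 35S::acdS roots and highest on average in control roots, with 8R6 and rolD::acdS roots between them. Mean Csa19g003320 expression in 35S::acdS roots was 37.3% of the control mean, and mean Csa15g001220 expression was 42.0% of it. In 8R6 roots the corresponding means were 86.5% and 82.5% of the control mean, and in rolD::acdS roots they were 79.3% and 75.0%. The order of the 4 group means was the same for the pair.

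Csa19g003320 was measured at 395, 231 and 472 CPM (mapped reads scaled to a common library size) in the 8R6 roots, a mean of 366 ± 123 (SD, n = 3). It was measured at 128, 198 and 147 CPM in the 35S::acdS roots (158 ± 36.2). The rolD::acdS roots gave 201, 426 and 379 CPM (335 ± 119). The control roots had 344, 569 and 356 CPM (423 ± 127). Every 35S::acdS library was thus below every other library, although the highest of them, at 198 CPM, stood only 3 CPM under the lowest rolD::acdS library. The 8R6, rolD::acdS and control ranges overlapped, and neighbours in that part of the order did not differ beyond their spread. In the table deposited, Csa19g003320 was among the more abundant genes, with its extreme ranks at 673 in the first 35S::acdS library and 64 in the second control library out of 49932 genes.

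Csa15g001220 was measured at 213, 113 and 173 CPM in the 8R6 roots (166 ± 50.3, SD, n = 3). It was measured at 57, 124 and 73 CPM in the 35S::acdS roots (84.7 ± 35.0). The rolD::acdS roots gave 129, 163 and 162 CPM (151 ± 19.3). The control roots had 181, 238 and 186 CPM (202 ± 31.6). All 35S::acdS libraries were below all rolD::acdS and control libraries, but the second 35S::acdS library, at 124 CPM, was above the second 8R6 library, at 113 CPM. The rolD::acdS libraries were also all below the control libraries, whereas the 8R6 range, 113 to 213 CPM, took in the whole rolD::acdS range and part of the control range. Its extreme ranks were 2662 in the first 35S::acdS library and 235 in the second control library, against a median level of 8 CPM for all genes in each library.

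**Figure D1:**
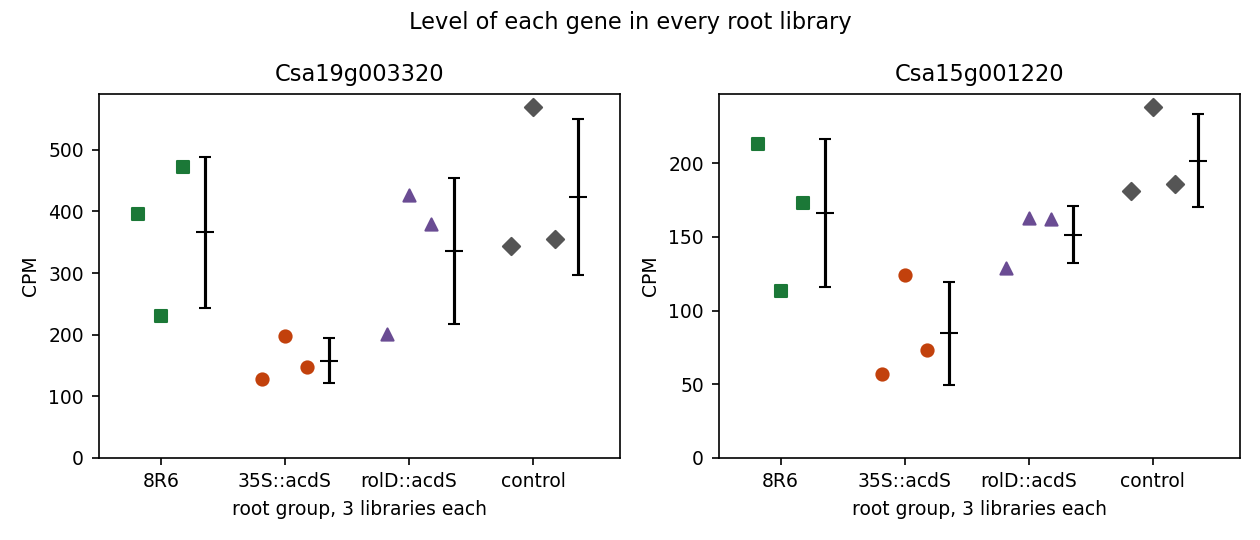
Expression in CPM of Csa19g003320 (left) and Csa15g001220 (right) in each library of 8R6, 35S::acdS, rolD::acdS and control roots; symbols are single libraries and the bar beside them is the mean ± SD (n = 3). The 35S::acdS libraries lie at 128 to 198 CPM and 57 to 124 CPM, and the control libraries at 344 to 569 CPM and 181 to 238 CPM.

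The comparison of 35S::acdS with control roots, on which the study listed the genes, asked how constitutive acdS expression alters the salt-stressed root. The log2 fold change on the log2(CPM + 0.5) scale was -1.41 (SE 0.345) for Csa19g003320 and -1.31 (SE 0.289) for Csa15g001220. The 35S::acdS libraries did not overlap the control libraries, with a gap of 146 CPM for Csa19g003320 and 57 CPM for Csa15g001220. In the same comparison, 4.42% of the 48099 genes tested were lower in every 35S::acdS library, so that the members belong to a group of 2127 genes. limma (calls need a Benjamini-Hochberg adjusted p no higher than 0.05 and a log2 fold change beyond 0.8 in either direction) called 0 of the 48099 genes here, which is 0%, while 3427 genes had an unadjusted p under 0.05. The study did call genes in this comparison, using edgeR. limma was run on rounded CPM with a spread shared by the 4 groups, so the calls of the study and these are not like for like. Fitting only the groups compared gave 38 limma calls.

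Against the roots of the other treatments, the 35S::acdS roots were also low for the pair. These values are again a description, since the 35S::acdS libraries entered the choice of the genes. The log2 fold change of 35S::acdS over rolD::acdS was -1.04 (SE 0.345) for Csa19g003320 and -0.90 (SE 0.289) for Csa15g001220, and neither gene overlapped between these groups, by margins of 3 and 5 CPM. Among all genes tested, 3.51% were lower in every 35S::acdS than in every rolD::acdS library. The log2 fold change of 35S::acdS over 8R6 was -1.17 for Csa19g003320, whose groups were separated by 33 CPM, and -0.999 for Csa15g001220, whose groups overlapped, with 8 of the 9 library pairs lower in 35S::acdS. Of all genes tested, 5.05% were lower in every 35S::acdS than in every 8R6 library. limma called 0.00416% of the genes between 35S::acdS and rolD::acdS roots and 0% between 35S::acdS and 8R6 roots, where 5796 had an unadjusted p under 0.05.

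The comparison of rolD::acdS with control roots asked the same question of root-directed acdS expression. For Csa19g003320, with a mean of 335 ± 119 CPM under rolD::acdS against 423 ± 127 CPM in the control, the log2 fold change was -0.37 with a 95% interval of -1.13 to 0.40 (limma adjusted p = 0.848). For Csa15g001220, with a mean of 151 ± 19.3 CPM under rolD::acdS against 202 ± 31.6 CPM in the control, it was -0.41 with an interval of -1.05 to 0.23 (limma adjusted p = 0.781). Neither gene passed the test, and both intervals include 0. For Csa15g001220 every rolD::acdS library was below every control library, with a gap of 18 CPM. Of all genes tested, 3.77% were lower in every rolD::acdS than in every control library, whatever the gap. limma called 2 genes in this comparison, or 0.00416%. The control libraries used here are the ones with which the members were chosen.

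In the comparison of 8R6 with control roots, which asked about the bacterial treatment itself, the log2 fold change was -0.23 for Csa19g003320, with a 95% interval of -0.99 to 0.53 (limma adjusted p = 0.923). It was -0.31 for Csa15g001220, with an interval of -0.95 to 0.32 (limma adjusted p = 0.902). The libraries of the groups overlapped for both genes, and the control libraries are again those of the choosing comparison. limma called 0% of the genes tested, with 2604 at an unadjusted p under 0.05.

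The rolD::acdS and 8R6 roots share no library with the comparison that chose the genes. Csa19g003320 had a log2 fold change of -0.14 between them, with a 95% interval of -0.90 to 0.63 (limma adjusted p = 0.896). Csa15g001220 had a log2 fold change of -0.10, with an interval of -0.73 to 0.54 (limma adjusted p = 0.919). The ranges overlapped for both genes, with differences well within the spread of the replicates. limma called 4 genes, or 0.00832%, between these groups.

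**Figure D2:**
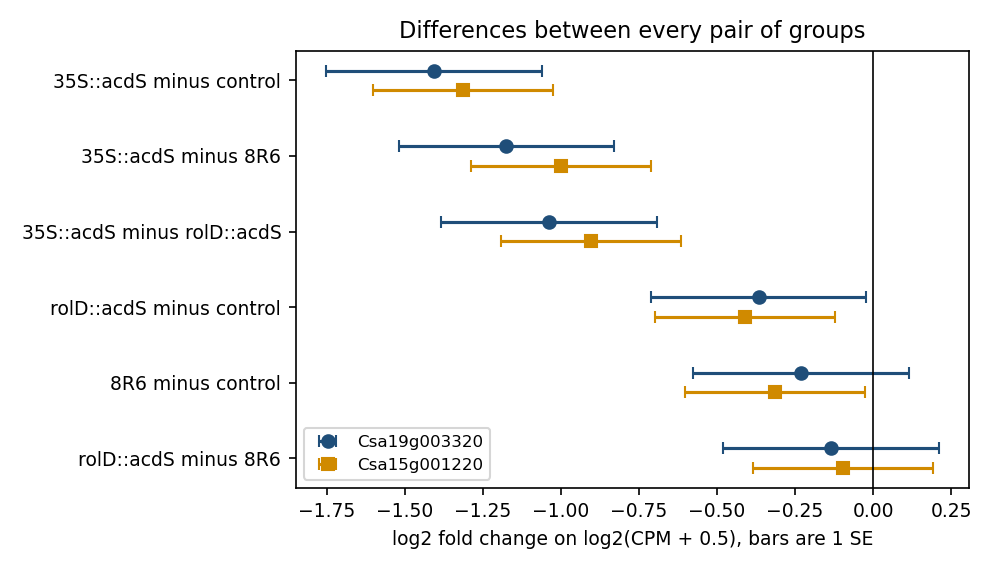
Log2 fold changes of Csa19g003320 (circles) and Csa15g001220 (squares) for every pair of groups, on the log2(CPM + 0.5) scale; bars are 1 standard error from the limma fit over 12 libraries. The differences that involve 35S::acdS lie between -1.41 and -0.90, and the others between -0.41 and -0.10.

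As a description of the labelled tissue, 5 root potassium and sodium transport genes were read, and none was at 0 in any library. Levels above 0 do not by themselves establish the tissue, and Csa01g002460 averaged only 1 CPM in 35S::acdS roots. HKT1, the name of 2 of the 5 genes, is a sodium transporter of the root vasculature. The other 3 are named AKT1 in the study, whose list gives them the A. thaliana ortholog SKOR, an outward potassium channel of the root stele. The study lists all 5 as lower in 35S::acdS than in control roots, as it does the pair, so their lower values there and their likeness to the pair follow in part from that choice. Their summed level was 90 to 127 CPM in 8R6 roots, 49 to 92 CPM in 35S::acdS roots, 86 to 187 CPM in rolD::acdS, against 136 to 207 CPM in control roots. Over the 12 libraries the HKT1 genes had an r of 0.61 and 0.67 with Csa19g003320 and of 0.77 and 0.83 with Csa15g001220, and the other 3 an r of 0.29 to 0.39 with Csa19g003320 and of 0.53 to 0.57 with Csa15g001220. The 4 chlorophyll-binding protein genes used as green tissue markers summed to 3 CPM in each 8R6 library, 5 to 20 CPM in 35S::acdS roots, 4 to 7 CPM in rolD::acdS, against 4 CPM in each control library. The study lists these 4 as higher in one of the acdS lines than in control roots, so their higher values there are how they were chosen. Of these, Csa01g026130 was at 0 in every 8R6 and control library. The part of either marker group in the result was not tested. In such bulk samples, fewer cells of a type cannot be told apart from less RNA per cell.

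The genes varied together from library to library. Over the 12 libraries their log2 levels had a Pearson r of 0.93 (Spearman rho 0.83), a description that carries the difference between groups on which both were chosen. When each gene was expressed as its deviation from its group mean, r was 0.79 (rho 0.81), and both genes deviated to the same side of the group mean in 12 of 12 libraries. In the 35S::acdS, rolD::acdS and control groups the order of the replicates was the same for both genes and in each group, with the library numbered 1 lowest and the library numbered 2 highest. In the 8R6 group the second library was the lowest for both genes, while the highest was the third for Csa19g003320 and the first for Csa15g001220. The summed level of the pair correlated with the total of the deposited CPM of the library with an r of 0.22. These totals are sums of already scaled values and do not measure read depth, so this r tells nothing about depth.

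**Figure D3:**
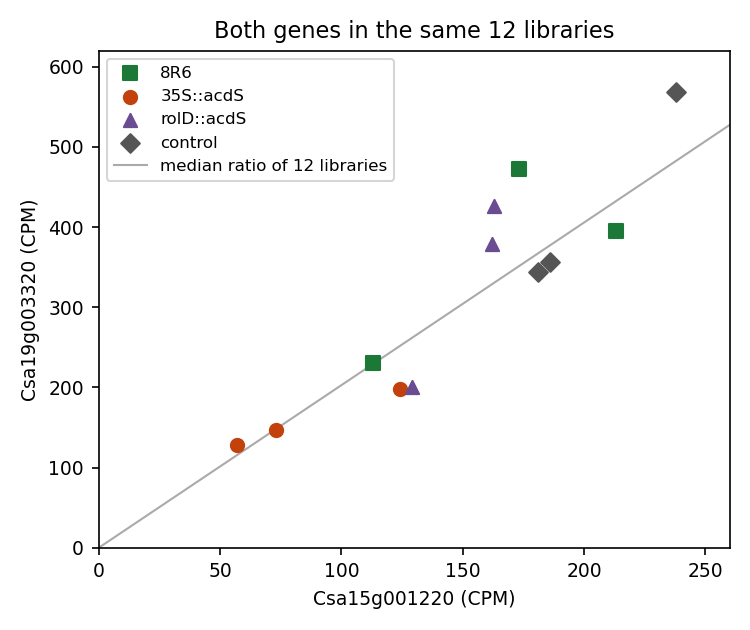
Csa19g003320 against Csa15g001220, both in CPM, in each of the 12 libraries, with symbols by group and a grey line at the median ratio of the libraries. The libraries spread along the line, with 57 and 128 CPM in the first 35S::acdS library at its low end and 238 and 569 CPM in the second control library at its high end (Csa15g001220 and Csa19g003320 in each).

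Csa19g003320 held a steady majority of the summed CPM of the pair. Its share was 65.0%, 67.2% and 73.2% in 8R6 roots (68.4 ± 4.25, SD, n = 3), and 69.2%, 61.5% and 66.8% in 35S::acdS roots (65.8 ± 3.94). It was 60.9%, 72.3% and 70.1% in rolD::acdS roots (67.8 ± 6.04), and 65.5%, 70.5% and 65.7% in control roots (67.2 ± 2.83). The ranges of all 4 groups overlapped, although the summed level of the pair had a mean of 242 ± 71.2 CPM in 35S::acdS, against 625 ± 158 CPM in control roots. In 2-sided exact permutation tests, the share differed by 1.19 percentage points between 8R6 and control roots (p = 0.7), by 0.525 points between rolD::acdS and control roots (p = 1) and by -0.669 points between rolD::acdS and 8R6 roots (p = 0.9). The adjusted p over the 3 tests was 1 for each, and 3 libraries against 3 cannot give a p below 0.1. CPM is not divided by transcript length, and the lengths were not used here, so the share is one of reads and not of transcripts. How reads that match both genes were assigned is not given in the sources used here, so the split between the genes is uncertain to the extent that their sequences are alike.

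**Figure D4:**
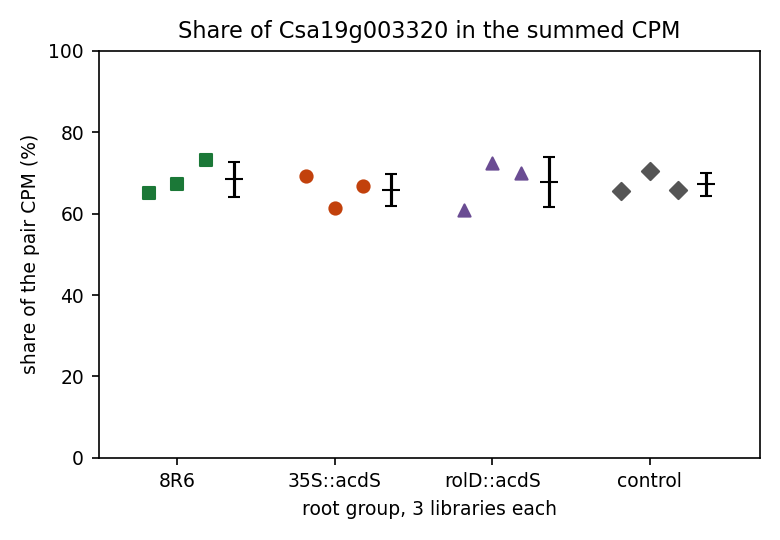
Share of Csa19g003320 in the summed CPM of Csa19g003320 and Csa15g001220, in percent, in each library by group; symbols are single libraries and the bar beside them is the mean ± SD (n = 3). The 12 libraries lie between 60.9% and 73.2% and the groups overlap.

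Each gene was the one most like the other. Of 47954 genes whose log2 levels varied over the 12 libraries, Csa15g001220 had the highest Pearson correlation with Csa19g003320, and Csa19g003320 had the highest with Csa15g001220. Only 6 genes had an r above 0.9 with Csa19g003320 and 10 with Csa15g001220. Because both genes were chosen for one difference between groups, the place was read again without the 35S::acdS libraries. Over the remaining 9 libraries r was 0.84, and Csa15g001220 was in place 72 of 47839 by likeness to Csa19g003320, with Csa19g003320 in place 50 by likeness to Csa15g001220. In the 6 libraries of 8R6 and rolD::acdS roots alone r was 0.81, with places 634 and 453 of 47522. By deviations from the group means, the places were 270 and 191 of 47932.

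After its partner, the genes with the pattern most like Csa19g003320 over the 12 libraries were Csa14g009950 (r = 0.93), Csa05g085290 (r = 0.92), Csa05g013140 (r = 0.92) and Csa16g003040 (r = 0.91). They were far less abundant than Csa19g003320, and the most abundant, Csa14g009950, averaged 31.3 CPM in 8R6, 24.3 CPM in 35S::acdS, 29.7 CPM in rolD::acdS and 30.7 CPM in control roots. Those most like Csa15g001220 were Csa16g002600 (r = 0.93), Csa09g093150 (r = 0.92), which the study annotates as a camelliol C synthase, Csa14g030770 (r = 0.92) and Csa16g044260 (r = 0.91), annotated as a hydroxyproline-rich glycoprotein. Csa16g044260, the most abundant of these, averaged 111 CPM in 8R6, 73 CPM in 35S::acdS, 104 CPM in rolD::acdS and 134 CPM in control roots. Several others were low, namely Csa09g093150 (4 to 8 CPM), Csa14g030770 (3 to 9 CPM), Csa05g085290 (5 to 14 CPM) and Csa05g013140 (6 to 11 CPM). At such levels the r rests on steps of a few whole CPM. No gene stood in both of these short lists. For the summed level of the pair, Csa05g013140 (r = 0.91) was most alike, and Csa18g011250, a glycosyl hydrolase family member, was among the next 4 (r = 0.90). Several of these genes stand in the list of the study from which the pair was taken.

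The genes numbered next to the pair did not share its pattern. Within 50 identifier units, 6 genes around Csa19g003320 and 5 around Csa15g001220 had a row in the table, and their levels ran between 0 and 98 CPM. None of the 11 was lower in every 35S::acdS library than in every control library, while 1, Csa19g003300, was higher in every 35S::acdS library. Among all 48099 genes tested, 4.42% were lower in every 35S::acdS library, so finding none among 11 tells little about these genes. The share of all genes higher in every 35S::acdS library was not computed. The highest correlation of any of the 11 with its member was 0.32. Csa19g003300, the nearest row to Csa19g003320, had a mean of 66.7 ± 3.06 CPM in 35S::acdS, against 58.7 ± 3.06 CPM in control roots (SD, n = 3), and its r with Csa19g003320 was -0.63. Csa15g001200, the nearest row to Csa15g001220, had a mean of 70.3 ± 4.93 CPM in 35S::acdS, against 64.3 ± 2.31 CPM in control roots, and its r with Csa15g001220 was -0.69. Csa19g003300 ran between 56 and 70 CPM and Csa15g001200 between 63 and 76 CPM over the 12 libraries, while Csa19g003290 (15 to 49 CPM) and Csa15g001190 (31 to 98 CPM) varied more, with r of -0.15 and -0.34 with their members.

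Other genes of galactose, raffinose and inositol metabolism came from a list that the study itself drew from these libraries. Their values in the comparisons for which the study listed them are therefore not independent evidence. That holds beyond 35S::acdS roots. The study lists Csa20g015440 as higher in 8R6 roots, and Csa09g086550 and Csa07g052330 as higher in rolD::acdS roots, than in control roots. The counts and medians below follow in part from that choice. All 8 were tested, and limma called 0 of them in each of the 6 comparisons. An unadjusted p under 0.05 was found for 2 in 8R6 over control, 2 in rolD::acdS over control, 4 in rolD::acdS over 8R6 and 2 to 6 in the comparisons with 35S::acdS. Among all 48099 genes tested, the matching counts were 2604, 3299, 6232 and 3427 to 5796. limma called only 0 to 4 of all genes per comparison, so 0 calls tells nothing about so short a list. The median log2 fold change of the 8 genes was 0.80 for 35S::acdS over control roots, 0.38 for rolD::acdS over control roots and -0.24 for 8R6 over control roots, against a median of 0 for all genes. In the comparison of 35S::acdS with control roots, 5 of the 8 had a value above 0 and 3 a value below 0. Those above 0 include Csa09g018520 (log2 fold change 1.31, at 1 to 10 CPM). It is annotated as galacturonosyltransferase-like 10, a name that does not place it in galactose, raffinose or inositol metabolism.

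Galactinol synthase makes galactinol, the galactosyl donor for raffinose synthesis. Csa07g061680, annotated as galactinol synthase 4, averaged 22.3 ± 2.52 CPM in 8R6, 17.7 ± 5.03 CPM in 35S::acdS, 31 ± 5 CPM in rolD::acdS and 37 ± 10.4 CPM in control roots. It was the gene of this list most like the pair, with an r of 0.72 with Csa19g003320 and 0.80 with Csa15g001220. In 35S::acdS against control roots, the genes annotated to the raffinose synthase family ran the other way. In 8R6 against control roots they did not move together, with a log2 fold change of -0.20 for Csa08g014090 and 0.40 for Csa13g023210. Csa13g023210 averaged 12.3 ± 3.79 CPM in 8R6, 17.7 ± 4.73 CPM in 35S::acdS, 14.3 ± 4.04 CPM in rolD::acdS and 9 ± 1.73 CPM in control roots, with an r of -0.85 with Csa19g003320 and -0.77 with Csa15g001220. Csa09g070000, annotated as seed imbibition 2, averaged 110 ± 27.4 CPM in 8R6, 231 ± 51.1 CPM in 35S::acdS, 162 ± 54.2 CPM in rolD::acdS and 130 ± 3.21 CPM in control roots, and its r with the members was -0.61 and -0.72. The myo-inositol-1-phosphate synthases, which make the inositol moiety of galactinol, had no common pattern with the pair, and their r with Csa19g003320 ran between -0.45 and 0.34.

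The sucrose genes of the study gave 7 tested genes, of which limma called 0 in each of the 6 comparisons, with 0 to 4 of them at an unadjusted p under 0.05. The study lists the vacuolar invertases as higher in rolD::acdS roots, and the symporters as higher and sucrose synthase as lower in 35S::acdS roots. These values follow in part from that choice. Of all 48099 genes tested, limma called 0 to 4 per comparison, so 0 calls tells nothing about so short a list. Between 2604 and 6232 of all genes were under the unadjusted limit, depending on the comparison. The median log2 fold change of the 7 sucrose genes was 0.13 for 35S::acdS over control roots. Csa07g038820, annotated as sucrose-proton symporter 1, which loads sucrose into cells, averaged 61.3 ± 11.6 CPM in 8R6, 127 ± 14.7 CPM in 35S::acdS, 65.3 ± 42.9 CPM in rolD::acdS and 61.7 ± 4.16 CPM in control roots. Its r was -0.84 with Csa19g003320 and -0.76 with Csa15g001220, while the vacuolar invertases, which split sucrose in the vacuole, had r between -0.16 and 0.07 with the pair. These correlations are descriptions over 12 libraries that share the group differences on which the study listed the genes.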

How the data were processed

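RNA of 12 camelina root libraries, made with a stranded kit, was sequenced by the submitters. Per the labels and the study's methods, reads were trimmed with Trimmomatic and aligned with STAR, and the submitters' notes also name DESeq and edgeR; versions are not given in the sources used here. The deposited values are a score, the CPM rounded by the authors to whole numbers, so read totals are unknown; they sum to 887898 to 947036 per library. A second sheet was not used.

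Here, log2(CPM + 0.5) values of the 48099 genes with at least 1 CPM in at least 3 libraries (1833 left out) were fitted with limma 3.58.1 in R 4.3.3 to the means of the 4 groups, with Benjamini-Hochberg adjustment over all tested genes. A call needed an adjusted p no higher than 0.05 and a log2 fold change beyond 0.8 in either direction. The script was tested on simulated data with planted changes larger than any fold change of the pair. That test does not show how often smaller changes are called. Shares were compared with exact permutation tests. The genes named beside the pair are the 4 or 5 with the highest Pearson r, all rows within 50 identifier units, and examples from the gene lists. The members and lists were chosen with earlier results of these data known. No identifier matched the RefSeq gene table (0 matched), so no sequence or length was used.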

Additional observations from a re-analysis of the deposited data

How the results depend on the processing

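The 12 fold changes of the pair were recomputed under 10 other settings and without each of the 12 libraries in turn. Many of these values could not differ from the main one. The filters, the replicate block, the variance trend, robust empirical Bayes and fitting only the groups compared leave a fold change as it is. So does leaving out a library of neither group compared. The counts that follow therefore overstate how far the fold changes were tried. Of the 132 values of the 6 tested fold changes, 126 kept their direction and 6 turned, all on leaving out a library, and none passed the test. The 132 values of the 6 fold changes with 35S::acdS, which were not tested, all stayed below 0; 3 of them, all of Csa15g001220, came within the limit of 0.8: -0.66 over rolD::acdS and -0.75 over 8R6 without 35S::acdS replicate 1, and -0.798 over 8R6 without 8R6 replicate 1. With 1 library left out, the log2 fold change of Csa19g003320 ran from -0.45 to 0.069 for 8R6 over control (0.0025 without control replicate 2 and 0.069 without 8R6 replicate 2) and from -0.44 to 0.20 for rolD::acdS over 8R6 (0.08 without 8R6 replicate 3 and 0.20 without rolD::acdS replicate 1). That of Csa15g001220 for rolD::acdS over 8R6 ran from -0.35 to 0.11 (0.11 without 8R6 replicate 1 and 0.014 without rolD::acdS replicate 1). For 35S::acdS over control the range was -1.58 to -1.17 for Csa19g003320 and -1.63 to -1.07 for Csa15g001220. The share of Csa19g003320 ran from -1.18 to 2.93 points for 8R6 minus control (-1.18 without 8R6 replicate 3), from -1.76 to 3.95 for rolD::acdS minus control (-0.332 and -0.252 without control replicates 1 and 3, and -1.76 and -0.621 without rolD::acdS replicates 2 and 3) and from -2.95 to 2.76 for rolD::acdS minus 8R6 (1.70 without 8R6 replicate 3 and 2.76 without rolD::acdS replicate 1).

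The counts of genes called, over all genes, moved with the settings, and the cause was not tested. With 1 library left out they ran from 0 to 4 for 8R6 over control, 0 to 6 for 35S::acdS over control, 0 to 7 for rolD::acdS over control, 0 to 10 for 35S::acdS over rolD::acdS, 0 to 22 for 35S::acdS over 8R6 and 0 to 51 for rolD::acdS over 8R6. Fitting only the groups compared gave 24, 38, 21, 39, 74 and 44 calls in that order of comparisons, and dropping the variance trend gave 2, 6, 4, 8, 9 and 9. A pseudocount of 0.1 gave 1 call for 8R6 over control, 3 for 35S::acdS over 8R6 and 15 for rolD::acdS over 8R6. No filter gave 10 and quantile normalization 15 for rolD::acdS over 8R6. For rolD::acdS over control and for 35S::acdS over rolD::acdS, 0 genes were called with a pseudocount of 1, a mean of at least 5 CPM, median-of-ratios size factors or robust empirical Bayes. For rolD::acdS over 8R6 these settings gave 0, 24, 0 and 27, and a mean of at least 5 CPM and robust empirical Bayes gave 2 each for 35S::acdS over 8R6.

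Replicate numbers were shared by the groups, and of the 18 pairs of same-numbered libraries 10 had deviations correlated above 0.1 (r from -0.14 to 0.40). Differently numbered libraries were not compared, so these values cannot decide whether the numbers mark a pairing. For both genes the order of the replicates was also the same in the 35S::acdS, rolD::acdS and control groups. The main fit did not take the numbers as a pairing. With the replicate block, 0 genes were called for rolD::acdS over control, 0 for 35S::acdS over rolD::acdS and 1 for rolD::acdS over 8R6, and neither gene passed the test in the 3 tested comparisons. The rounding of the deposited CPM limits Csa15g001220 to within 0.877% of its value, and the read depth is unknown.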
